A study of Homo sapiens with 121 samples.

Results

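The genes of glucose uptake, glycolysis, lactate and pyruvate handling and the pentose phosphate branch were followed in single human embryonic stem cells (hESCs). The list held 31 genes, of the 25610 genes read, and all 31 were found. They were listed by their place in the pathway, with no threshold on their values. All 121 cells came from the established line WA26, kept undifferentiated in E8 medium on Matrigel and passaged with EDTA and a ROCK inhibitor, and no agent or genotype distinguished the groups. In each cell the poly(A) RNA was captured on beads for full-length RNA-seq, and the telomere length was measured by PCR on the genomic DNA left over, as the ratio of telomere signal to a reference (T/R ratio). The labels placed 81 cells in the long, 25 in the medium and 15 in the short telomere group.

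A telomere group was defined by the cell's own T/R ratio, and no culture, plate or batch was named. Each group therefore counted as 1 sample of cells from 1 line, and no test between groups was made. SDs are across cells. A gene was called detected above a TPM (by definition a transcript level scaled for gene length and for the total of the cell) of 1. Between 2030 and 11515 genes were detected in a cell, and 68 cells with more than 8000 were called gene-rich and the other 53 gene-poor. Of the long, medium and short groups, 51, 14 and 3 cells were gene-rich, and 30, 11 and 12 gene-poor. The 4 cells with fewer than 4000 detected genes were all short telomere cells. Read depth is unknown from TPM. POU5F1 and LIN28A, markers of undifferentiated cells, were detected in all 121 cells, NANOG in 116 and SOX2 in 113. GATA6 was listed at 0 in every cell, and SOX17 and T were each detected in 1 cell, while MIXL1 was detected in 46 and PAX6 in 33.

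Glycolysis splits glucose into pyruvate. Hexokinase, phosphofructokinase and pyruvate kinase catalyse its practically irreversible steps, and the enzymes between them work close to equilibrium. Pyruvate is then reduced to lactate by lactate dehydrogenase and exported, or enters mitochondria, where the pyruvate dehydrogenase complex turns it into acetyl-CoA under the brake of the PDK kinases. The pentose phosphate branch makes NADPH and ribose. Human pluripotent stem cells are known for a strong glycolytic flux.

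The level rose and fell steeply along the pathway, with much the same order of steps in the gene-rich cells. GAPDH and lactate dehydrogenase stood far above the rest, and hexokinase, phosphofructokinase and pyruvate kinase, the irreversible steps, were the lowest. In the 68 gene-rich cells the median TPM was 229 for the glucose transporters SLC2A1 and SLC2A3 summed, 44.9 for the hexokinases, 131 for GPI and 43.9 for the phosphofructokinases. It was 494 for the aldolases, 1167 for TPI1, 3186 for GAPDH, 537 for PGK1, 725 for PGAM1 and 598 for the enolases. It fell to 72.6 for PKM, which makes pyruvate, reached 4152 for the lactate dehydrogenases and was 258 for the carriers SLC16A1 and SLC16A3.

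**Figure D1:**
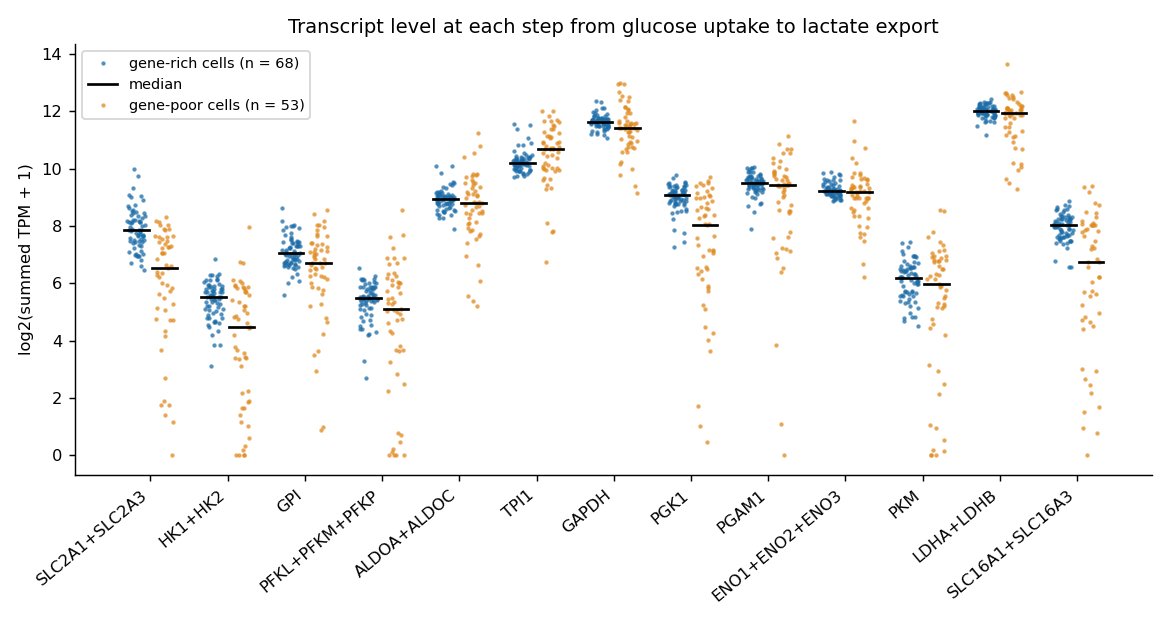
Summed level of the genes at each step, as log2(summed TPM + 1), in 68 gene-rich and 53 gene-poor cells; each point is a cell and each black line a median. Hexokinase, phosphofructokinase and PKM sit below the steps between them in the gene-rich cells, and gene-poor cells spread further down at every step.

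PKM was below each of aldolase, TPI1, GAPDH, PGK1, PGAM1 and enolase in 68 of 68 gene-rich cells and in 44 of 53 gene-poor cells. The hexokinase and phosphofructokinase sums were likewise both below all 6 of those steps in 68 of 68 and in 40 of 53 cells. The spread of neighbours overlapped elsewhere: across gene-rich cells the aldolase sum ran from 236 to 1096, PGK1 from 155 to 885 and the enolase sum from 462 to 947. LDHB was above GAPDH in 49 of 68 gene-rich cells and in 32 of 53 gene-poor cells, so their order was not fixed. Reads of some members can be shared with pseudogenes. The annotation names 65 pseudogenes of any type after GAPDH, 13 after PGAM1, 6 after LDHA, 5 after PKM and 4 each after TPI1 and ENO1. It names 3 each after LDHB and SLC2A3, 2 each after ALDOA and PGK1, and 1 after some others. The study's methods name HTSeq and the submitters' notes RSEM, which treat such reads differently, so the levels of these genes are uncertain. The order of steps, and the shares of isozymes below, also assume values scaled for gene length. The study's methods describe no such step. A table by gene also does not separate the splice forms of PKM.

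The 31 genes together made 1.33% of all transcripts in gene-rich cells (13288 ± 1357 TPM, SD, n = 68 cells) and 1.27% in gene-poor cells (12661 ± 4958, n = 53). The sum was 13388 ± 2535 TPM in the long, 12923 ± 3311 in the medium and 11142 ± 6392 in the short group, differences smaller than the SD of any of the groups. GAPDH, LDHB and TPI1 made 62.6 ± 5.98% of it over all cells (n = 121). Of all genes, LDHB ranked 46 by mean TPM and GAPDH 53, whereas PKM ranked 1652 and the glycolytic isozyme ENO3 10493. The mean reached 100 TPM for 15 members and 10 for 27, and HK2 (6.37), PDK1 (3.48), ENO3 (2.70) and SLC16A3 (0.635) were under 10.

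For most enzymes with isozymes among the 31 genes, 1 of the listed genes gave most of their summed transcripts in most cells. The share of each gene was taken in the sum of the listed genes of its family, within each cell whose sum was above TPM 1. Isozymes outside the list, such as HKDC1 and PDK2, were not in these sums. Lactate dehydrogenase is a tetramer of LDHA and LDHB subunits, the first known for forming lactate and the second abundant in heart. LDHB was the higher gene in 121 of 121 cells, with a share of 88.7 ± 6.22% (SD, n = 121), and its lowest share in any cell was 62.5%. ENO1, the general enolase, made 95.2 ± 4.95% and was highest in 121 of 121 cells. ENO2, the neuronal form, made 4.36 ± 4.73% and ENO3, the muscle form, 0.484 ± 1.99%. ALDOA, the aldolase of muscle and most other tissues, made 93.9 ± 10.2% beside ALDOC, a brain form, and was higher in 119 of 121 cells.

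SLC16A1 (MCT1), a carrier of lactate and pyruvate, made 99.5 ± 2.78% beside SLC16A3 (MCT4), the carrier of strongly glycolytic tissues, which was listed at 0 in 99 of 121 cells. PDK3 led PDK1 in 95 of 99 cells, with a share of 88.2 ± 19.8%, and PDK1 was listed at 0 in 63 of 121. Both are kinases that switch pyruvate dehydrogenase off. HK1, a widely expressed hexokinase, made 77.5 ± 27.5% beside HK2, the insulin-responsive form of muscle, and led in 101 of 114 cells and in 67 of 68 gene-rich cells. SLC2A3 (GLUT3), the high-affinity glucose transporter, made 88.4 ± 9.50% of the pair in gene-rich cells and was above SLC2A1 (GLUT1) in 68 of 68. Over all cells its share was 80.7 ± 23.5% (n = 120), and the 15 cells in which SLC2A1 led were all gene-poor.

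**Figure D2:**
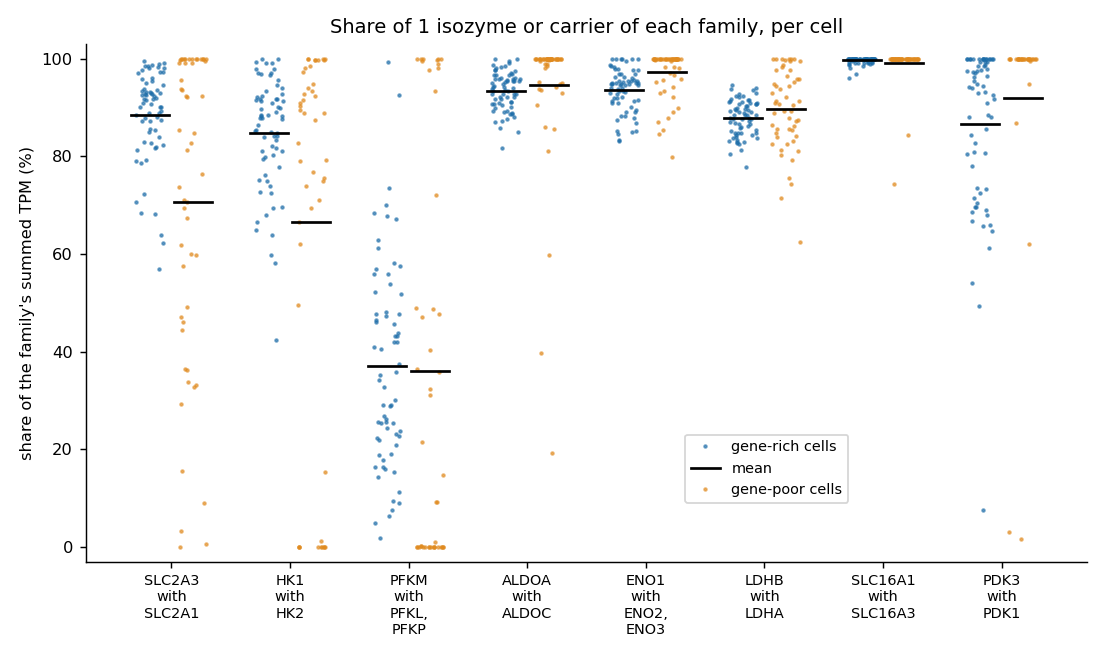
Share of 1 gene of each family in the summed TPM of the family's listed genes (%), per cell with a sum above TPM 1, in gene-rich and gene-poor cells; black lines are means. LDHB, ENO1 and SLC16A1 stay in the upper part. ALDOA does so in most cells, with a lowest share of 19.3% among gene-poor cells, whereas PFKM spreads over nearly the whole axis.

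Phosphofructokinase was the exception. It commits glucose to glycolysis, and its liver (PFKL), muscle (PFKM) and platelet (PFKP) forms had near-equal shares over cells, of 34.2 ± 31.5%, 36.7 ± 30.2% and 29.1 ± 26.9% (n = 112). Within single cells they were far from equal, and the leading form changed from cell to cell: PFKL was highest in 35, PFKM in 43 and PFKP in 34 of 112 cells. In gene-rich cells the leaders were PFKL in 15, PFKM in 29 and PFKP in 24 of 68, and the share of PFKM ran from 1.80% to 99.4%. The 3 gene-rich short telomere cells were all led by PFKP, with shares of 52.5% to 82.3%, against 16 of 51 gene-rich long telomere cells. Among gene-poor short telomere cells PFKL led in 5, PFKM in 2 and PFKP in 1 of 8. At these levels, with mean TPM of 15.3 to 17.5, how far dropout of single transcripts moves the shares was not tested.

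The E1 part of pyruvate dehydrogenase holds its alpha (PDHA1) and beta (PDHB) subunits in equal number, yet PDHB exceeded PDHA1 in 68 of 68 gene-rich cells and in 116 of 121 cells in all. Mean TPM was 383 ± 234 for PDHB and 68.1 ± 57.3 for PDHA1 (n = 121). DLD, the E3 subunit, had 52.6 ± 46.3 and DLAT, the E2 subunit, 22.4 ± 21.6. LDHB alone exceeded the 4 subunits summed in 121 of 121 cells. In the pentose phosphate branch, TKT and TALDO1, its non-oxidative enzymes, had 347 ± 130 and 326 ± 232, and PGD, the second NADPH-making enzyme, 153 ± 127.

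The spread among gene-rich cells was narrow for GAPDH and LDHB, the most abundant members. On the log2(TPM + 1) scale the SD over 68 cells was 0.24 for GAPDH and 0.24 for LDHB. The 15 members averaging at least 100 TPM had SDs of 0.24 to 0.84 with a median of 0.43. All 1358 genes at that level had a median of 0.58. The members and these genes were not matched for level above 100 TPM. All 31 members were detected in some gene-rich cells, with 25 to 31 detected per cell and a median of 29. In gene-poor cells 11 to 29 were detected, with a median of 22.

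The next comparison asks whether the genes differ with telomere length. ENO3, SLC16A1, PFKM and LDHA were singled out by the study on these same cells, so their direction here is not independent evidence. LDHA (chr11:18416107-18429972, plus strand, GRCh37) had a lowest, median and highest TPM of 23.0, 447 and 1133 in the long, 8.89, 469 and 818 in the medium and 0, 75.5 and 769 in the short group. It exceeded TPM 10 in 81 of 81 long, 24 of 25 medium and 10 of 15 short telomere cells, and the ranges overlapped widely. The long minus short difference in mean log2(TPM + 1) was 3.27, the largest of the 31, against SDs of 1.02 in the long and 3.75 in the short group. In 74.8% of the pairs of a long with a short telomere cell the former had more LDHA.

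SLC16A1 (chr1:113454469-113500215, minus strand) ran from 0.720 to 662 in long telomere cells with a median of 247. Its median was 222 in the medium and 20.1 in the short group, which reached 404. The long minus short difference was 2.67. PFKM (chr12:48498922-48540187, plus strand) had medians of 11.4, 8.25 and 0 and highest values of 147, 101 and 63.2 in the long, medium and short groups, with a difference of 1.40. It was at 0 in 8 of 15 short and 13 of 81 long telomere cells. ENO3 (chr17:4851387-4860426, plus strand) was detected in 24 of 81 long, 4 of 25 medium and 1 of 15 short telomere cells. Its median was 0 in all 3 groups and its difference 0.59, and in 62.2% of such pairs both cells had the same value.

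**Figure D3:**
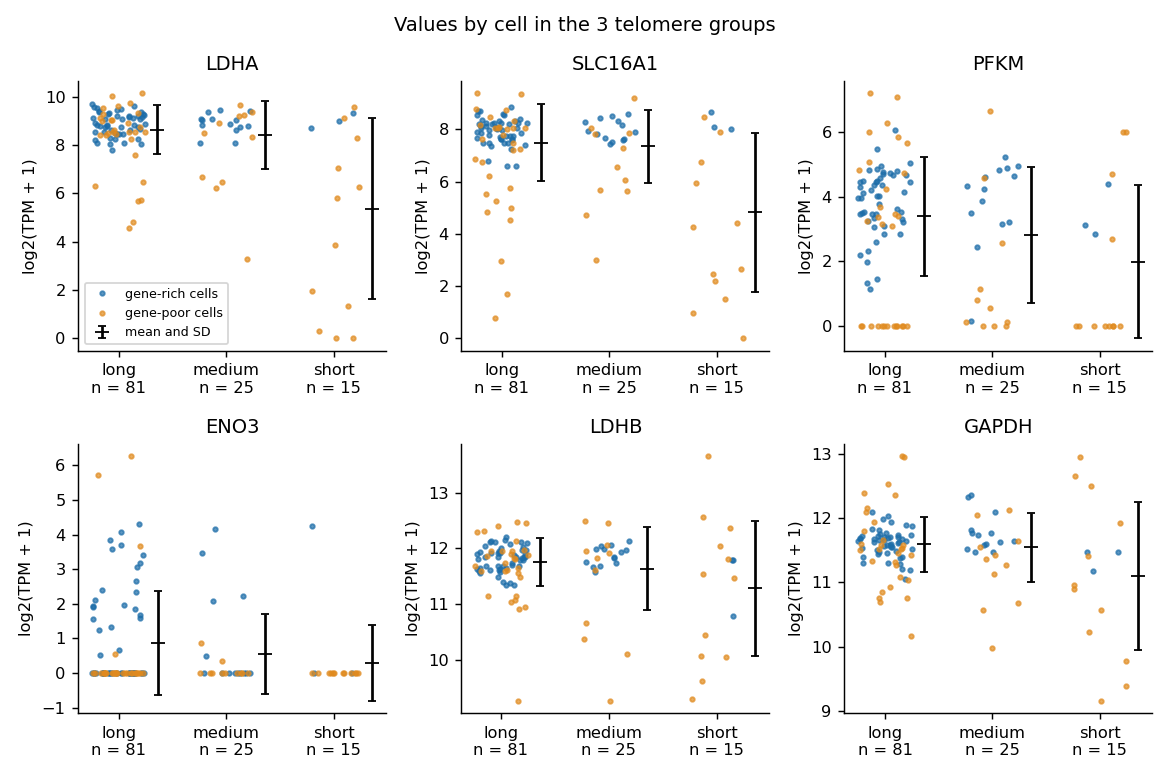
log2(TPM + 1) of LDHA, SLC16A1, PFKM, ENO3, LDHB and GAPDH in each long (n = 81), medium (n = 25) and short (n = 15) telomere cell; blue points are gene-rich and orange gene-poor cells, and bars show the mean and SD. The low LDHA and SLC16A1 values of the short group are all orange, and its 3 blue points lie among those of the long group.

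Of the 31 members, 30 had a higher mean in the long group (23 after rescaling by the median ratio over genes above 0 in every cell, which took the median of all genes from 1.40 to 1.02), and the difference was at least 1 log2 unit for 19 (15 after rescaling). The background was as high. Among the 6213 genes averaging at least 10 TPM, 66.5% were at least 1 log2 unit higher in long telomere cells (50.8% after rescaling). Of the 1358 genes averaging at least 100, 61.2% were (before rescaling). The median difference was 1.33 for the members and 1.40 for the 6213 genes. No member was lower by 1 log2 unit, against 1.71% of the 6213 genes. The difference was larger than the SDs of both groups for 0 of the 31 members and for 9.87% of the 6213 genes.

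After LDHA the largest differences were 2.89 for DLD and 2.77 for PGD. DLD had a median TPM of 58.2 in the long, 41.0 in the medium and 0.050 in the short group, and PGD 151, 129 and 12.9. The smallest were -0.16 for SLC16A3, 0.14 for GPI, which converts glucose-6-phosphate to its fructose isomer, and 0.38 for ENO1. GPI had medians of 128, 102 and 166 in the long, medium and short groups, and ENO1 565, 570 and 507. The abundant LDHB (0.46) and GAPDH (0.49) also differed little. LDHB had medians of 3624, 3670 and 2969 and GAPDH 3084, 3109 and 2309.

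By role, the glucose transporters differed by 2.09 for SLC2A1 and 2.26 for SLC2A3, and the hexokinases by 1.11 for HK1 and 0.51 for HK2. In upper glycolysis PFKL differed by 0.44, PFKP by 1.33, ALDOA by 1.10, ALDOC by 1.43 and TPI1 by 0.70. In lower glycolysis PGK1 differed by 1.33, PGAM1 by 2.21, ENO2 by 2.23 and PKM by 2.05. The pyruvate dehydrogenase subunits differed by 1.59 for PDHA1, 2.47 for PDHB and 0.91 for DLAT, and the kinases by 0.79 for PDK1 and 1.83 for PDK3. In the pentose phosphate branch TKT differed by 0.61 and TALDO1 by 1.43.

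Long and medium telomere cells differed little. No member reached 1 log2 unit, and the differences ran from -0.50 for HK1 to 0.59 for DLAT with a median of 0.15 (0.14 over the 6213 genes), beside 1.75% of the 6213 genes at least 1 unit higher in long telomere cells. Between medium and short telomere cells 16 members were at least 1 unit higher, or 51.6%, and 59.9% of the 6213 genes were. LDHA differed there by 3.05 and PGD by 2.84. The short group therefore set the contrast, and its cells were also those with the fewest detected genes (5784 ± 2355, against 8296 ± 2152 in the long and 7980 ± 2070 in the medium group). Less RNA in a cell and loss of RNA in preparing its library cannot be told apart from these values.

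Among gene-rich cells the members no longer leaned to the long group. Of the 31, 14 had a higher and 17 a lower mean in the 51 long telomere cells against the 3 short ones, with a median difference of -0.01 (0.04 over the 6213 genes). LDHA was 639, 414 and 507 TPM in the 3 short telomere cells, inside the range of 222 to 842 of the long ones, and the difference was -0.13. SLC16A1 was 268, 256 and 404 in them, inside 94.8 to 466, and the difference was -0.33. PFKM was 20.3, 6.15 and 7.81, inside 1.20 to 67.0, with a difference of 0.35. ENO3 was 0, 0 and 18.1, inside 0 to 18.9, with a difference of -0.34. With 3 short telomere cells these values leave wide room for a difference in either direction.

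One member was at least 1 unit higher and 1 at least 1 unit lower in long telomere cells here, where 12.7% of the 6213 genes were higher and 6.94% lower by that much. PFKL was 1.69 higher: it was 1.68, 15.8 and 0 TPM in the short telomere cells, with a median of 10.8 in the long ones. PFKP was 1.41 lower: it was 24.2, 32.4 and 36.3, above the long median of 14.0, and the long cell was higher in 7.84% of pairs. HK1 was 0.84 lower. The differences of HK1, PFKP and GAPDH (0.24), 3 of the 31, were larger than the SDs of both groups, as were those of 7.34% of the 6213 genes.

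**Figure D4:**
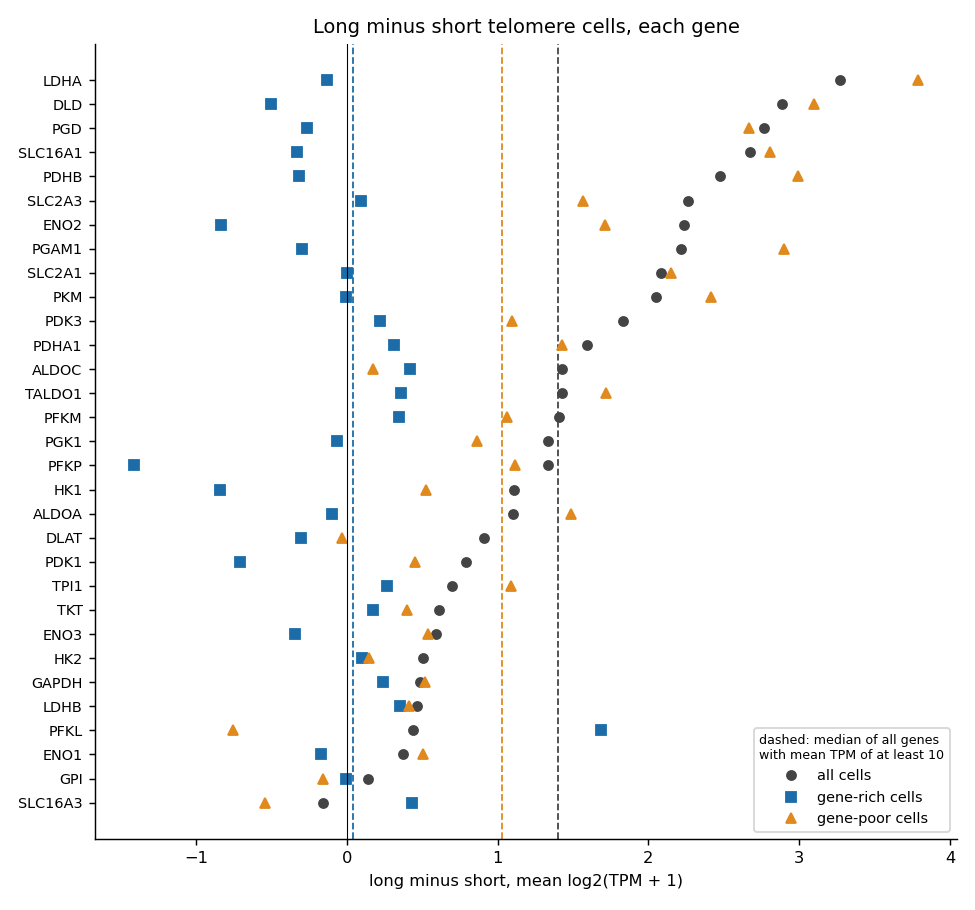
Long minus short telomere cells in mean log2(TPM + 1) for each of the 31 genes, over all cells, gene-rich cells (51 long, 3 short) and gene-poor cells (30 long, 12 short); dashed lines are the medians of all genes averaging at least 10 TPM. Black and orange symbols lie mostly right of 0 around their dashed lines, and blue squares scatter around 0.

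Among gene-poor cells the lean was present again. Of the 31 members 17 were at least 1 unit higher in the 30 long telomere cells against the 12 short ones, or 54.8%, where 51.0% of the 6213 genes and 60.8% of the 1358 abundant genes were; none was lower by 1 unit, and 3.90% of the 6213 genes were. The median was 1.09 (1.03 over the 6213 genes). LDHA differed by 3.79, DLD by 3.09 and SLC16A1 by 2.80. These 3 of the 31 differences, and 5.23% of those of the 6213 genes, were larger than the SDs of both groups. LDHA had a median of 376 in the long and 34.2 in the short telomere cells, whose highest value was 769. PGAM1, a mutase of lower glycolysis, had medians of 785 and 185, with the long cell higher in 86.7% of pairs. Even here the long telomere cells had more detected genes (5755 ± 1096 against 4933 ± 1719). Without the 4 cells under 4000 detected genes the median over the members was 0.97 (0.78 over the 6213 genes), LDHA differed by 2.91 and PKM by 2.73, and PFKL was 2.05 lower in long telomere cells.

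The makeup of the isozyme families was also compared between groups. The LDHA share was 12.0 ± 5.83% in the long, 11.4 ± 4.31% in the medium and 7.40 ± 9.32% in the short group. Among gene-rich cells it was 12.0 ± 3.59% for long and 16.0 ± 5.92% for short telomeres (n = 51 and 3), and among gene-poor cells 12.0 ± 8.45% and 5.25 ± 8.88% (n = 30 and 12). All these differences were within the SD of the short group, and the direction turned between the sets. The share of SLC2A3 was 81.7 ± 22.6% in the long, 75.1 ± 27.7% in the medium and 85.5 ± 20.2% in the short group, that of HK1 78.4 ± 25.8%, 77.9 ± 24.7% and 71.0 ± 41.0%, and that of ALDOA 94.7 ± 5.99%, 91.9 ± 15.8% and 93.3 ± 15.6%. By its mean share, the leading gene of these 4 families was thus the same in every group. In phosphofructokinase it was not: PFKL, PFKM and PFKP had mean shares of 30.4%, 38.5% and 31.1% in the long, 41.8%, 33.3% and 24.9% in the medium and 45.3%, 30.5% and 24.2% in the short group (n = 78, 23 and 11), with SDs of 23.1 to 45.9 points. For PFKL the direction also turned between the sets. Its share was 30.9 ± 18.6% for long and 10.9 ± 15.8% for short telomeres among gene-rich cells (n = 51 and 3). Among gene-poor cells it was 29.6 ± 38.3% and 58.3 ± 47.3% (n = 27 and 8).

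The T/R ratio itself gave a second view, with the per-cell ratios that the study lists beside its samples. The coefficients below are descriptions across cells of 1 line that differ in the number of detected genes. Over all 121 cells Pearson's r with TPM had a median of 0.12 over the members and 0.04 over the 6213 genes. It was at least 0.2 for 5 members, or 16.1%, and for 11.7% of the 6213 genes. These were PGAM1 (0.33, Spearman's rho 0.26), SLC2A1 (0.27, rho 0.22), DLD (0.26, rho 0.28), LDHA (0.22, rho 0.17) and PFKM (0.21, rho 0.19). The lowest was -0.19 for PFKL (rho -0.03), and SLC16A1 (0.17) and ENO3 (0.14) lay between. With the 2 most extreme T/R ratios left out (by distance from their median), the members had a median of 0.14, and r was 0.35 for PGAM1 and 0.31 for LDHA.

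Within gene-rich cells the median over the members was -0.01, and the 5 named coefficients became -0.09 for PGAM1, 0.13 for SLC2A1, 0.08 for DLD, -0.08 for LDHA and 0.04 for PFKM. The highest there was 0.25 for PGK1, and the lowest -0.31 for HK1 (rho -0.29). Within gene-poor cells the median was 0.17 (0.05 over the 6213 genes), with 0.44 for PGAM1 and 0.34 for LDHA. Within the 81 long telomere cells the median was -0.01 (0.00 over all genes at that level), within the 25 medium ones 0.13 (0.05) and within the 15 short ones 0.33 (0.17). LDHA had 0.01, 0.29 and 0.58 there, and PGAM1 0.36, 0.07 and 0.36. Detected genes per cell had a median r of 0.40 with the members' log2(TPM + 1) and 0.42 with that of the 6213 genes. Over all 121 cells, the partial r of TPM with the T/R ratio given detected genes was close to the plain r. Its median was 0.13 over the members and 0.04 over the 6213 genes. It was 0.33 for PGAM1, 0.27 for SLC2A1, 0.25 for DLD, 0.22 for LDHA and 0.21 for PFKM. The partial r takes out only a linear link with detected genes over all cells. The r of the T/R ratio itself with detected genes is not given here. What detected genes contribute to these coefficients was therefore not tested.

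Across the 68 gene-rich cells the members did not move as 1 block. The 465 pairs had a median Pearson's r on log2(TPM + 1) of 0.02, and pairs of a member with any other gene averaging at least 10 TPM had 0.01. At least 0.4 was reached by 9 pairs (1.94%, against 1.20% of the member-other pairs), and 6 pairs (1.29%, against 0.833%) were at -0.4 or lower. The highest were TPI1 with GAPDH (0.53, rho 0.38), ALDOA with TPI1 (0.52, rho 0.39), PGK1 with PDK3 (0.52, rho 0.27), TPI1 with TALDO1 (0.51, rho 0.33), PGK1 with LDHA (0.48, rho 0.39) and PGK1 with SLC16A1 (0.47, rho 0.41). In the 51 gene-rich long telomere cells alone, r of these pairs was 0.30, 0.54, 0.47, 0.57, 0.48 and 0.50, in the same order. The lowest were TPI1 with PDK3 (-0.49, rho -0.24), SLC2A3 with ENO1 (-0.49, rho -0.42), PKM with LDHA (-0.48, rho -0.49) and TPI1 with PGK1 (-0.48, rho -0.13).

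TPI1 and PGK1 recurred in these pairs and were described further after their values were seen. TPI1 also had r of 0.45 with ENO1 (rho 0.17), and PGK1 0.38 with DLD (rho 0.33) and 0.31 with ENO2 (rho 0.17). LDHA had r of 0.40 with SLC16A1, its partner in lactate export, and of 0.38 with DLD, but of -0.34 with GAPDH. The summed level of 79 ribosomal protein genes moved with these genes too: its r was -0.72 with TPI1, -0.54 with TALDO1, -0.49 with ENO1, -0.46 with ALDOA and -0.41 with GAPDH, and 0.35 with PGK1, 0.43 with ENO2 and 0.59 with PDK3, though 0.06 with LDHA and -0.06 with SLC16A1. Detected genes per cell had r of -0.53 with TALDO1, -0.39 with TPI1, -0.29 with ENO1, -0.28 with GAPDH and -0.20 with ALDOA. Their r was 0.34 with ENO2, 0.32 with DLD, 0.31 with PDK3, 0.31 with LDHA, 0.30 with PGK1 and 0.24 with SLC16A1. The part of the ribosomal sum and of detected genes in the pair coefficients was not tested.

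**Figure D5:**
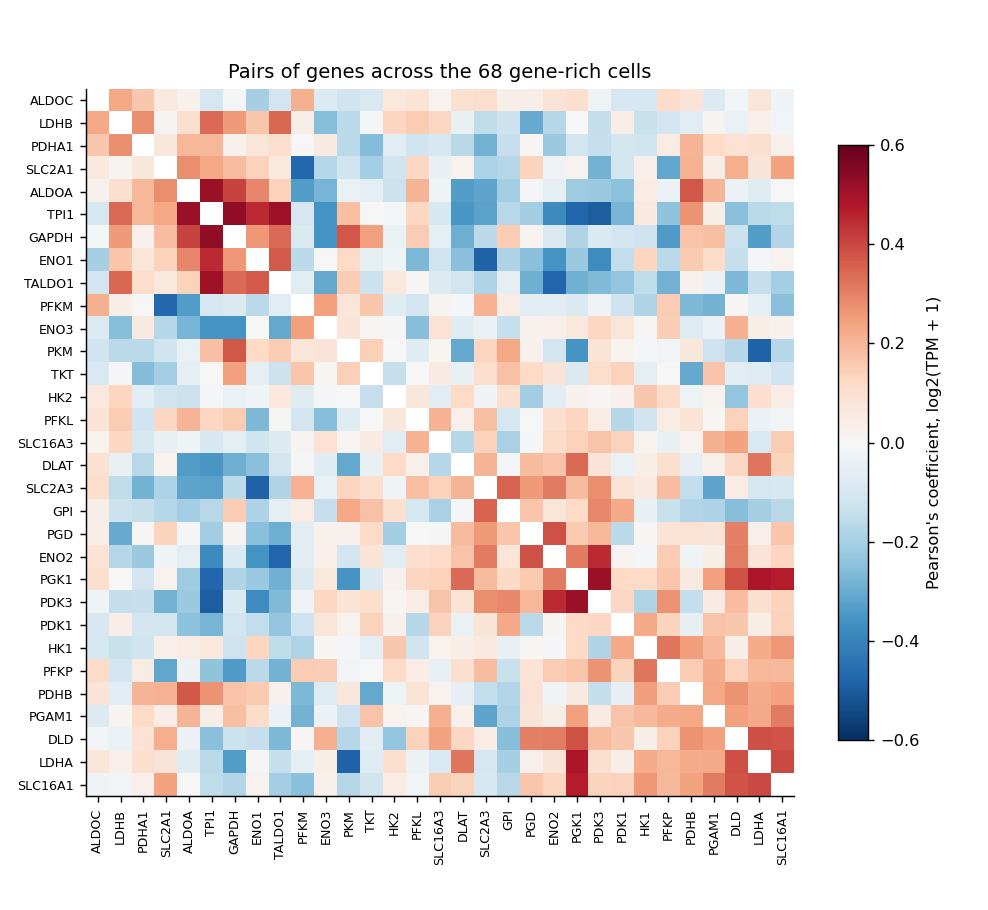
Pearson's r of log2(TPM + 1) between each pair of the 31 genes across 68 gene-rich cells, from blue (negative) to red (positive), with genes ordered by average-linkage clustering. A red block joins ALDOA, TPI1, GAPDH, ENO1 and TALDO1, with r from 0.14 for ALDOA with TALDO1 to 0.53 for TPI1 with GAPDH. Another red block at the lower right joins DLD, LDHA and SLC16A1, and PGK1 is red with those 3 and blue with TPI1.

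The bases before the start sites are shown for 5 members: PGK1 with LDHA and PDK3, each of which moved with it, PKM, which moved against LDHA, and LDHB, the main lactate dehydrogenase gene, which had r of 0.03 with LDHA. The letters searched were ACGTG, the core of the hypoxia response element and of many E-boxes, on both strands, so that CACGTG counts on each. Of the 31 members 29 had entries in the RefSeq promoter table (GRCh38.p14), and SLC2A3 and SLC16A1 had none. Each window covers the 250 bases before a start, 5′ to 3′ on the gene's strand, with matches in capitals.
LDHA, first of 2 starts, chr11:18394313-18394562, plus strand: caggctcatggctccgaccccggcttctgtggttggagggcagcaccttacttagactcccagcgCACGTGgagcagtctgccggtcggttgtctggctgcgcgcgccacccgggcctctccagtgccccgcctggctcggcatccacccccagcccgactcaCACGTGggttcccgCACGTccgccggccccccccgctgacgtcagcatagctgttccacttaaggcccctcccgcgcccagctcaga
PGK1, chrX:78103998-78104247, plus strand: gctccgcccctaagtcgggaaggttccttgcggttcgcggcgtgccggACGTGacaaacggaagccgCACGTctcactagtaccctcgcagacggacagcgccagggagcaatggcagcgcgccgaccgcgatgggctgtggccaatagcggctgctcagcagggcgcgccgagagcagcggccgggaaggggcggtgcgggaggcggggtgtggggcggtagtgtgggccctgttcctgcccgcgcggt
PDK3, chrX:24465036-24465285, plus strand: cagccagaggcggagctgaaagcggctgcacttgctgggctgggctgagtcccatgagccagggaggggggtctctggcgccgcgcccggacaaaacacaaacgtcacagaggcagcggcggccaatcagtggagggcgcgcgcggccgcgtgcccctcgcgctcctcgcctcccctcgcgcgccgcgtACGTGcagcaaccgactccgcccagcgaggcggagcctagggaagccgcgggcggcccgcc
LDHB, chr12:21657843-21658092, minus strand: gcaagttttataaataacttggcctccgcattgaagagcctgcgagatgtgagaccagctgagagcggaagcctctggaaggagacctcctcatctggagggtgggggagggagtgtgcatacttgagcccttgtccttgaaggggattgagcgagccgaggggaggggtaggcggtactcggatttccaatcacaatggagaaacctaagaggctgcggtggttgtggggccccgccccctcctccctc
PKM, chr15:72231191-72231440, minus strand: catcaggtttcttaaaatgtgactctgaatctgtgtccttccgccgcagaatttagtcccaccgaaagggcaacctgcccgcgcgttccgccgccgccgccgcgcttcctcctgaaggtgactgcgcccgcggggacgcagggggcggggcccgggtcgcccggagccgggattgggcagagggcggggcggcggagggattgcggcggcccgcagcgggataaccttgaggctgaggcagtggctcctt
The LDHA window held 5 matches, the most of any window of a member, whereas the window of its other start held 0. PGK1 held 2 and PDK3 held 1, and LDHB and PKM held 0. After LDHA the most were in a window of HK2, with 4, and in ALDOC and PDHB, with 3 each. HK2, ALDOC and PDHB had r of 0.03, 0.10 and 0.05 with PGK1, and of 0.10, 0.07 and 0.22 with LDHA. Whether matches go with covariation was not tested. Of the 56 windows of members 20 held a match (35.7%), beside 24.7% of the 6789 windows of genes averaging at least 10 TPM and 18.5% of all 35116 windows. Windows of 1 gene can overlap, and HK1 and PFKM had 7 each. Counted by gene, 17 of 29 members held a match, beside 1486 of 4707 genes averaging at least 10 TPM and 5935 of all 27305. Of the genes paired with TPI1 or PGK1 above, GAPDH held 2, the 3 windows of ALDOA 1, 2 and 1, the 2 windows of TPI1 0 and 1, ENO2 1, and ENO1, TALDO1 and both windows of DLD 0.

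The rest of the pathway was read from a further list, of which 59 genes were in the table. Of these, 20 averaged at least 10 TPM, and 15 of the 20 were at least 1 log2 unit higher in the long than the short group and none lower, beside the 66.5% given above. Among gene-rich cells 2 of the 20 were higher and 2 lower by that much, beside 12.7% and 6.94% of the 6213 genes. BSG (basigin), the chaperone that carries SLC16A1 to the cell surface, was the most abundant, with a mean TPM of 417 and detection in 121 of 121 cells. Its difference was 1.92 over all and 0.18 among gene-rich cells, and its r with the T/R ratio 0.34 and 0.16. EMB, a related chaperone, had a mean of 19.5 and differences of 2.28 and 0.12.

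Of the pentose phosphate genes, PRPS1, which makes phosphoribosyl pyrophosphate from ribose-5-phosphate, had a mean TPM of 138 and the largest difference, 3.61, which was 0.49 among gene-rich cells. PRPS2 (2.89 and 0.05), RPE (2.96 and -0.00), RPIA (2.31 and 1.77) and PGLS (2.52 and 0.27) had means of 31.2 to 46.3. The mitochondrial pyruvate carrier subunits MPC1 and MPC2 had means of 57.1 and 57.5, with differences of 1.18 and 0.83 over all cells and -0.63 and -0.89 among gene-rich cells. PDHX, the E3-binding protein, had 34.6 (1.80 and -0.64), and the phosphatase PDP1 11.5 (0.81 and -1.38).

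Of the remaining genes above a mean of 10, the phosphatase G6PC3 had 70.2 (1.60 and 0.04), BPGM 17.4 (1.33 and -0.08), FBP1, an enzyme of gluconeogenesis, 16.0 (1.14 and 0.56), MINPP1 15.1 (1.87 and -1.04), the mitochondrial PEP carboxykinase PCK2 14.2 (2.36 and 1.42) and the ADP-dependent glucokinase ADPGK 13.0 (1.86 and -0.13). PGAM5 (11.7) and TIGAR (10.7) were the 2 with a lower mean in long telomere cells, by -0.23 and -0.11. PDK4, PDHA2, FBP2, TKTL2 and SLC16A8 were listed at 0 in every cell, and the tissue-restricted PKLR had a mean of 0.555.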

How the data were processed

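Single WA26 cells were lysed, poly(A) RNA was captured and amplified by Smart-seq2, and telomere length was measured in the same cells. The authors deposited 1 table of TPM per gene and cell, with 121 cells. The submitters' processing notes name TopHat2 and RSEM with hg19, whereas the study's methods describe TopHat, HTSeq counts and size factors, so how the deposited TPM were made is not fully settled. An incomplete last line was left out, and TPM sums were 979828 to 997050 per cell over the 25610 genes read. Groups came from the sample titles. T/R ratios came from the study's supplementary list. The members and gene lists were chosen with earlier results of these data known.

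Levels were compared as differences of mean log2(TPM + 1), a scale that understates changes of low genes, with no test since each group was 1 sample. A difference of 1 log2 unit was counted. The functions were tested on simulated data. All 31 members were described by role, with full values for ENO3, SLC16A1, PFKM, LDHA, the 3 highest and 3 lowest differences and the isozyme families. Positions are from the GRCh37 annotation (hg19), and promoters from RefSeq (GRCh38.p14). Python 3.11.15, numpy 2.4.6, scipy 1.17.1 and pandas 2.3.3 were used. The alternatives were other pseudocounts, medians, rescaling, sets of cells, and rank or partial coefficients. Some genes of the further pathway list are counted but not reported by name here.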

Additional observations from a re-analysis of the deposited data

How the results depend on the processing

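Of 53 alternative values, 42 stayed within limits set for values with no test (0.5 for log2 differences, 0.1 for correlations, 5 points for shares, 1.5 times for counts). The median long minus short difference over the members moved from 1.33 to 1.87 with a pseudocount of 0.1 and to 0.683 with one of 10. The latter also took the members at least 1 unit higher from 19 to 10. Without the 4 cells under 4000 detected genes the median was 0.871 with 15 members. The share over all genes was not taken under these changes, so these counts have no background beside them. After division by the median ratio over genes above 0 in every cell the members had a median of 0.938. There 15 members were at least 1 unit higher, beside 50.8% of the 6213 genes. Of the 31 members 23 were then above 0, and the median over the 6213 genes was 1.02. Shares moved for SLC2A3 (87.0% of summed TPM, 90.0% as a median, 88.4% in gene-rich cells), HK1 (83.8%, 87.7% and 84.8%) and PDK3 (97.7% as a median). The median pair coefficient was 0.219 over all cells. With no filter on level, 24.8% of 21080 genes were at least 1 unit higher in long telomere cells. No paired analysis was possible because the numbers in the titles only name cells and no result comes from a test. Depth was unknown, and 3 gene-rich short telomere cells limit that comparison.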
